A study of Mus musculus with 6 samples.

Results

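The net outcome of a 7-day differentiation protocol was examined in mouse embryonic stem cells that carry a shortened DNMT1, by setting the array of day 7 against the array of day 0. These were 2 of the 6 arrays of the series, 1 for each of 2 lines at days 0, 4 and 7, and they were chosen by their titles. The comparison has 1 array a side, so every value below is a difference between 2 samples, with no replicate, no error and no test. It was made for all genes that the platform annotation names with 1 symbol, and 13277 of 18193 such genes had a mean signal above the floor described below and are called measured.

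Both lines derive from embryonic stem cells in which Dnmt1, Dnmt3a and Dnmt3b, the genes of the maintenance and the de novo DNA methyltransferases, are knocked out together. The deletion line expresses a DNMT1 lacking its N-terminal 602 amino acids, and the full-length line expresses the complete protein. Both forms are expressed throughout the culture, and each form is represented by 1 line, so the form of DNMT1 and the line cannot be told apart. At day 0 the cells grew in medium with 10% FBS and leukaemia inhibitory factor (LIF). Day 4 followed after 1 day of growth in embryoid bodies and 3 days of adherent culture, both without LIF. A further 3 days in medium with 10% KSR and 10 ng/ml Activin A, which the submitters added to bring about primitive streak formation, led to day 7. The day 7 array therefore differs from the day 0 array in time, in LIF, in serum and in Activin A together. The source label of the day 0 deletion sample speaks of differentiated cells, whereas its title says day 0, and the title was used. Nothing in the labels says that any sample came from a repeated culture.

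DNA methylation at CpG dinucleotides is copied onto new DNA strands by DNMT1, which is brought to replicating DNA through its N-terminal region and through UHRF1. In mouse embryonic cells promoter methylation silences a set of germ cell genes, and cells without DNA methyltransferases remain able to self-renew with LIF. When LIF is withdrawn, stem cells leave naive pluripotency, and Activin A, a ligand that acts through SMAD2 and SMAD3 as Nodal does, supports the epiblast state and promotes mesoderm and endoderm.

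Levels are log2 MAS5 signals, the Affymetrix summary of a probe set, scaled to a common mean per array. Signals below 41.2, a log2 level of 5.37, were set to that floor, and where the dimmer array lies at the floor the difference is given as at least its size. Each gene is represented by its brightest probe set. A gene was counted as higher or lower where day 7 differed from day 0 by at least 2-fold, a log2 difference of 1, and the brighter array was at least 2 times the floor. The 38 gene lists described below hold 782 entries, with some genes in several lists. Of these entries 718 were among the genes named with 1 symbol, and 646 were measured. Counts over the lists leave out genes that were absent or were dim on average over the 6 arrays. On those arrays between 12571 and 12812 of the measured genes lay above the floor. In these bulk samples a change in the number of cells of a type and a change in RNA per cell cannot be told apart.

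At day 7 of the deletion line 830 of the 13277 measured genes were at least 2-fold higher than at day 0, which is 6.25%, and 627 were at least 2-fold lower, which is 4.72%. The remaining 11820 genes, 89.0%, lay within 2-fold. The shares of 6.25% and 4.72% are the background for the counts in each gene list below. In a short list 1 gene can make up such a share, as in naive pluripotency, where 1 of 16 is 6.25%. The median difference over all measured genes was 0.03, and the 5th and 95th percentiles were -0.97 and 1.10. Most of the genes that differed did so by less than 4-fold, namely 696 of the higher and 522 of the lower, and 239 genes differed by at least 4-fold. The day 0 level was at the floor for 141 of the higher genes, and the day 7 level was at the floor for 138 of the lower genes. The choice of 2-fold cuts a continuous distribution: 159 higher genes had a difference between 1 and 1.1 and 220 further genes lay between 0.9 and 1, with 118 and 136 on the lower side.

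**Figure D1:**
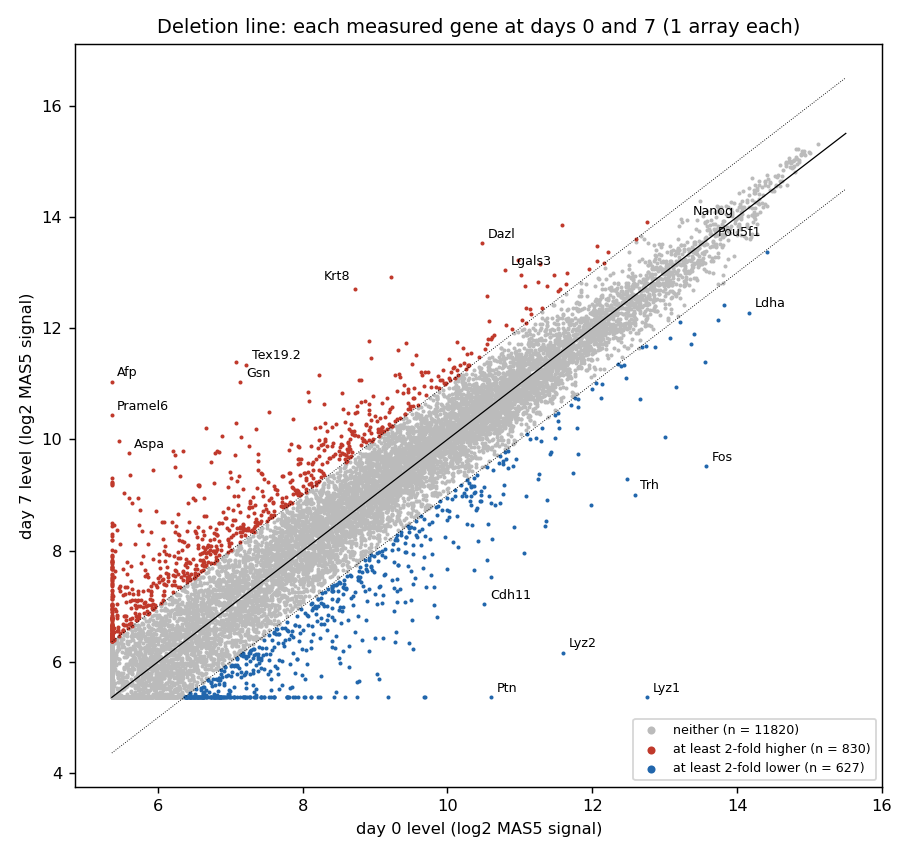
Each point is 1 measured gene, with its log2 MAS5 signal at day 0 on the x axis and at day 7 on the y axis in the deletion line (1 array each), and the dotted lines mark 2-fold. The 830 higher genes are red, the 627 lower genes blue, and points along the left and lower edges lie at the floor of 5.37; Afp and Pramel6 start at the floor, and Lyz1 and Ptn end there.

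Probe sets of the same gene were compared as a check within the arrays. Of the 830 higher genes, 517 had a single probe set above the floor and 313 had several. All probe sets pointed the same way for 261 of those 313 genes, and for 112 of them every probe set was at least 2-fold higher. Of the 627 lower genes, 251 had several probe sets, 218 of them in 1 direction throughout and 111 of them at least 2-fold lower in every probe set. In 1 higher and 1 lower gene another probe set differed by at least 2-fold the other way. Over the 6152 genes with another probe set above the floor, the brightest and the next probe set differed by a median of 0.26 in their day 7 minus day 0 value, and the gap was under 1 for 93.3% of genes.

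The altered genes were read as a check of the labels. Dnmt1 had a log2 level of 8.97 at day 0, 8.37 at day 4 and 8.94 at day 7 in the deletion line, a net difference of -0.03. Its other 2 probe sets gave 0.68 and at least 1.45, so the probe sets of Dnmt1 did not give 1 answer, and which of them read the introduced form was not analysed here. Dnmt3b, a de novo methyltransferase, stood at 8.21, 9.04 and 8.75, a difference of 0.54, and Dnmt3a was not measured. Transcripts of both knocked-out genes that were measured were thus within 2-fold at both ends of the protocol by their brightest probe sets, and these values do not say whether a protein is made.

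Many germ cell genes were higher at day 7 than at day 0, and the higher genes named below were highest on that array. The 4 lists of meiosis genes, germ cell RNA and transposon defence genes, X-linked germ cell genes and oocyte and early embryo genes held 92 genes, 61 of them measured, of which 28 were at least 2-fold higher, 45.9% beside 6.25% of all measured genes, and 3 were lower. Their median difference was 0.83, beside 0.03 over all measured genes. The promoters of the 4 germ cell genes with the highest differences are shown because DNA methylation acts on CpG dinucleotides, and those of the gene with the highest and the gene with the lowest difference of all are set beside them. Each is the 250 bases upstream of the RefSeq start in mouse build GRCm38.p6, written 5′ to 3′ in the direction of transcription, with every CpG in capitals.
Tex19.2: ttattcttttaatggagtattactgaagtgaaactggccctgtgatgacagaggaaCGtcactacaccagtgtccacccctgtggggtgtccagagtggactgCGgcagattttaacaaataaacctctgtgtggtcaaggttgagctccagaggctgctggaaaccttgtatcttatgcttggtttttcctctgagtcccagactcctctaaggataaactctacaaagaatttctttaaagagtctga
Asz1: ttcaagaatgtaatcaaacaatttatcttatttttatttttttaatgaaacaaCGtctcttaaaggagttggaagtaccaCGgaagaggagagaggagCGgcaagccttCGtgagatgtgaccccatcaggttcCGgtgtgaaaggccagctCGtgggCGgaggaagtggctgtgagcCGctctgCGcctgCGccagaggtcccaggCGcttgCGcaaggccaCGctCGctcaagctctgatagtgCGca
Taf7l: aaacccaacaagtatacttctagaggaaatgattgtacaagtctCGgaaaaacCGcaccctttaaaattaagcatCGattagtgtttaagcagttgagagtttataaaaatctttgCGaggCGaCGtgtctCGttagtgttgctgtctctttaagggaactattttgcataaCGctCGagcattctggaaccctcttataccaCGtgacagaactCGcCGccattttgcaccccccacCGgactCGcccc
Dazl: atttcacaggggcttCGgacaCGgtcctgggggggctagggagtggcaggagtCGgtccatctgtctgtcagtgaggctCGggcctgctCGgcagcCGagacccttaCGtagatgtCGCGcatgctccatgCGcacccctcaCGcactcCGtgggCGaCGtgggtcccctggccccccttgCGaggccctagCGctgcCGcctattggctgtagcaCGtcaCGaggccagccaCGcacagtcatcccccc
Afp: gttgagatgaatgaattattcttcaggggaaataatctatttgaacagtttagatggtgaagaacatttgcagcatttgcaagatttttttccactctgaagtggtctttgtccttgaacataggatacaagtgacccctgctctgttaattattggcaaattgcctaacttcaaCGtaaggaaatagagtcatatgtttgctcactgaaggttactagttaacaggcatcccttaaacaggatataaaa
Lyz1: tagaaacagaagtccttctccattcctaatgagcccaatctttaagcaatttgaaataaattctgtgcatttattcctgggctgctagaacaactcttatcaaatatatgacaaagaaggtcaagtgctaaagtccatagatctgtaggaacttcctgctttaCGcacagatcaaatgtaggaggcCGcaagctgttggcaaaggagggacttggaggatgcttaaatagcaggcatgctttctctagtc
They lie at chr11:121118678-121118927 on the minus strand for Tex19.2, chr6:18109062-18109311 on the minus strand for Asz1, chrX:134476491-134476740 on the minus strand for Taf7l, chr17:50293621-50293870 on the minus strand for Dazl, chr5:90490464-90490713 on the plus strand for Afp and chr10:117292869-117293118 on the minus strand for Lyz1. Dazl holds 20 CpG in its 250 bases, Asz1 15 and Taf7l 14, whereas Tex19.2 and Lyz1 hold 2 each and Afp holds 1. No methylation was measured in these samples.

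Among the genes of RNA control and transposon defence, 7 of 17 measured genes were at least 2-fold higher and 2 were lower, with a median difference of 0.78. Tex19.2, which encodes a germ cell protein that restrains retrotransposons, had the highest difference: 7.22 at day 0, 7.59 at day 4 and 11.34 at day 7, which is 17.4-fold. The level at day 4 was close to that at day 0, and the day 7 array stands apart. Its relative Tex19.1 went from 10.97 through 11.02 to 13.23, a difference of 2.26 with the same order. Both genes lie on chromosome 11, whose genes as a whole were higher at day 7 by a median of 0.36, as described further on. Asz1, a component of the piRNA pathway at mitochondria, stood at 6.35, 7.62 and 9.80, a difference of 3.45, and its other probe set gave 2.82. Dazl, an RNA-binding protein needed for germ cell development, stood at 10.48, 10.07 and 13.53, a difference of 3.05 or 8.28-fold, with 3.64 in its other probe set. Dazl was well above the floor on all 3 arrays, and only the day 7 array lay above its day 0 level. The 2 lower genes of this list were Piwil4, with a difference of -1.16, and Tdrd12, with -1.09, which were named after their values were seen; both belong to the piRNA machinery.

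Meiosis genes were higher in 9 of 20 measured genes and lower in 1, with a median difference of 0.91. Smc1b, a meiotic cohesin subunit, was at 7.36, 7.06 and 10.19 on days 0, 4 and 7, a difference of 2.83. Sycp1, which forms the transverse filaments of the synaptonemal complex between paired chromosomes, stood at 6.49, 6.59 and 8.94, a difference of 2.45. Sycp3, of the lateral element of that complex, stood at 8.55, 9.86 and 10.84, a difference of 2.29, and Syce3, of its central element, at 7.42, 8.88 and 9.39, a difference of 1.97. Smc1b and Sycp1 were at least 2-fold above day 0 on the day 7 array only, whereas Sycp3 and Syce3 already had intermediate levels at day 4. The gene that was lower was Hormad1, with -1.33, named after its value was seen.

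X-linked germ cell genes were higher in 8 of 11 measured genes and lower in none, with a median difference of 1.79. The smallest difference in this list was -0.17 and the largest 3.26. Taf7l, a germ cell form of a general transcription factor subunit, stood at 6.24, 7.42 and 9.50 on days 0, 4 and 7. Magea5, of the melanoma antigen family, stood at 8.09, 6.91 and 10.70, a difference of 2.61. Nxf2, an mRNA export factor, stood at 6.06, 6.83 and 8.51, a difference of 2.45, and Tktl1, a transketolase-like protein, at 6.42, 6.57 and 8.85, a difference of 2.43. All 4 were highest at day 7. Of Tktl1's other 2 probe sets, the lower gave at least 0.34 and the higher 1.80.

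Of the oocyte and early embryo genes, 4 of 14 measured were higher and none was lower, with a median difference of 0.33. These 4 were Nlrp4f, with 7.87, 6.70 and 10.37, Nlrp14, with 7.38, 8.13 and 9.61, Crxos, with 8.11, 6.95 and 9.89, and Sohlh2, with 9.10, 8.95 and 10.65 on days 0, 4 and 7. The Nlrp genes belong to a family with many members active in oocytes, and Sohlh2 is a germ cell transcription factor. The other 10 genes of the list lay between -0.10 and 0.54.

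Promoter sequence was described for genes with a single RefSeq start, 8498 of the measured genes. The 300 bases around the start, 250 before and 50 after, held a median of 21 CpG over the measured genes, 15 over the 533 higher genes, 14 over the 351 lower genes and 15 over the 39 measured germ cell genes. A ratio of observed to expected CpG of at least 0.6 was found in 71.3% of the measured genes, 50.7% of the higher genes, 46.2% of the lower genes and 43.6% of the germ cell genes. The motif CACGTG, the E-box read by MYC and MAX partners, occurred in 10.2% of the measured genes, 10.1% of the higher genes and 25.6% of the germ cell genes, which is 10 of 39. It was in 4 of the 19 germ cell promoters whose gene was higher, 21.1%, and in 7.12% of all 22862 promoters in the table. Of the sequences shown, Taf7l has 1 copy, in which the capitals mark the CpG. TCCCGC, the core of the E2F6 motif, searched on both strands, occurred in 35.7% of the measured genes, 26.6% of the higher genes, 30.8% of the germ cell genes and 19.6% of all promoters. CACGTG is its own reverse complement, and the motifs can overlap only in the base at their ends. A match is a description of letters only.

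Endoderm genes were higher at day 7 as well, and the higher genes named here were above their day 0 level at day 4 too. Of 22 measured genes of visceral and extraembryonic endoderm, the tissue that feeds the early embryo, 10 were at least 2-fold higher and none was lower, with a median difference of 0.92. Afp, alpha-fetoprotein, had the highest difference of all named genes: it was at the floor at day 0, at 8.81 at day 4 and at 11.04 at day 7, a difference of at least 5.67 or at least 51.1-fold. Its other 2 probe sets gave at least 4.20 and at least 4.35. Ttr, the thyroid hormone carrier transthyretin, was at the floor at day 0, at 9.45 at day 4 and at 9.24 at day 7, so that it was high on both later arrays. Cited1, a transcriptional coactivator, stood at 6.01, 8.63 and 7.95, and Rbp4, the retinol carrier, at 7.47, 8.16 and 9.29, differences of 1.94 and 1.82. Summed over the 8 marker genes of extraembryonic endoderm, the log2 level was 9.77 at day 0, 12.36 at day 4 and 12.22 at day 7.

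Definitive endoderm genes were higher in 4 of 12 measured genes and lower in none, with a median difference of 0.73. All 4 are transcription factors. Sox17 stood at 6.55, 9.58 and 9.19 on days 0, 4 and 7, a difference of 2.64. Foxa2 stood at 6.07, 7.47 and 8.22, a difference of 2.15, Foxa1 at 5.90, 7.97 and 7.25, a difference of 1.35, and Gata6 at 6.62, 8.06 and 7.83, a difference of 1.21. Each of the 4 was above its day 0 level on both later arrays, and Foxa2 was highest at day 7 while the other 3 were highest at day 4. These factors are shared between definitive and visceral endoderm, and the arrays do not tell the 2 tissues apart. The lowest member was Cxcr4, a receptor of definitive endoderm cells, with 6.90 at day 0 and 6.17 at day 7, a difference of -0.73.

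Trophoblast and placental genes were higher in 11 of 20 measured genes and lower in none, with a median difference of 1.18. The 3 largest differences were keratins, the intermediate filaments of simple epithelia, which stand in the list of keratins and epithelial junctions as well. Krt8 stood at 8.73, 11.90 and 12.70 on days 0, 4 and 7, a difference of 3.97 or 15.7-fold, with 3.85 and 3.94 in its other 2 probe sets. Krt18, its partner, stood at 9.22, 12.40 and 12.92, a difference of 3.70, and Krt7 at 6.31, 7.67 and 9.35, a difference of 3.04. Both later arrays were high for Krt8 and Krt18. The trophoblast markers were not all dim. Tfap2c stood at 11.33, 10.57 and 11.42, a difference of 0.09. Elf5 was at the floor on all 3 arrays of the deletion line, and Cdx2 was at the floor at days 0 and 7. Tpbpa was below the floor on all 6 arrays. Gata3 was at the floor at days 0 and 4 and at 6.47 at day 7. Epithelial genes showed 8 of 20 measured genes higher and none lower, with a median of 0.71. Besides the keratins above, Krt19 stood at 7.15, 9.36 and 10.04, a difference of 2.89.

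**Figure D2:**
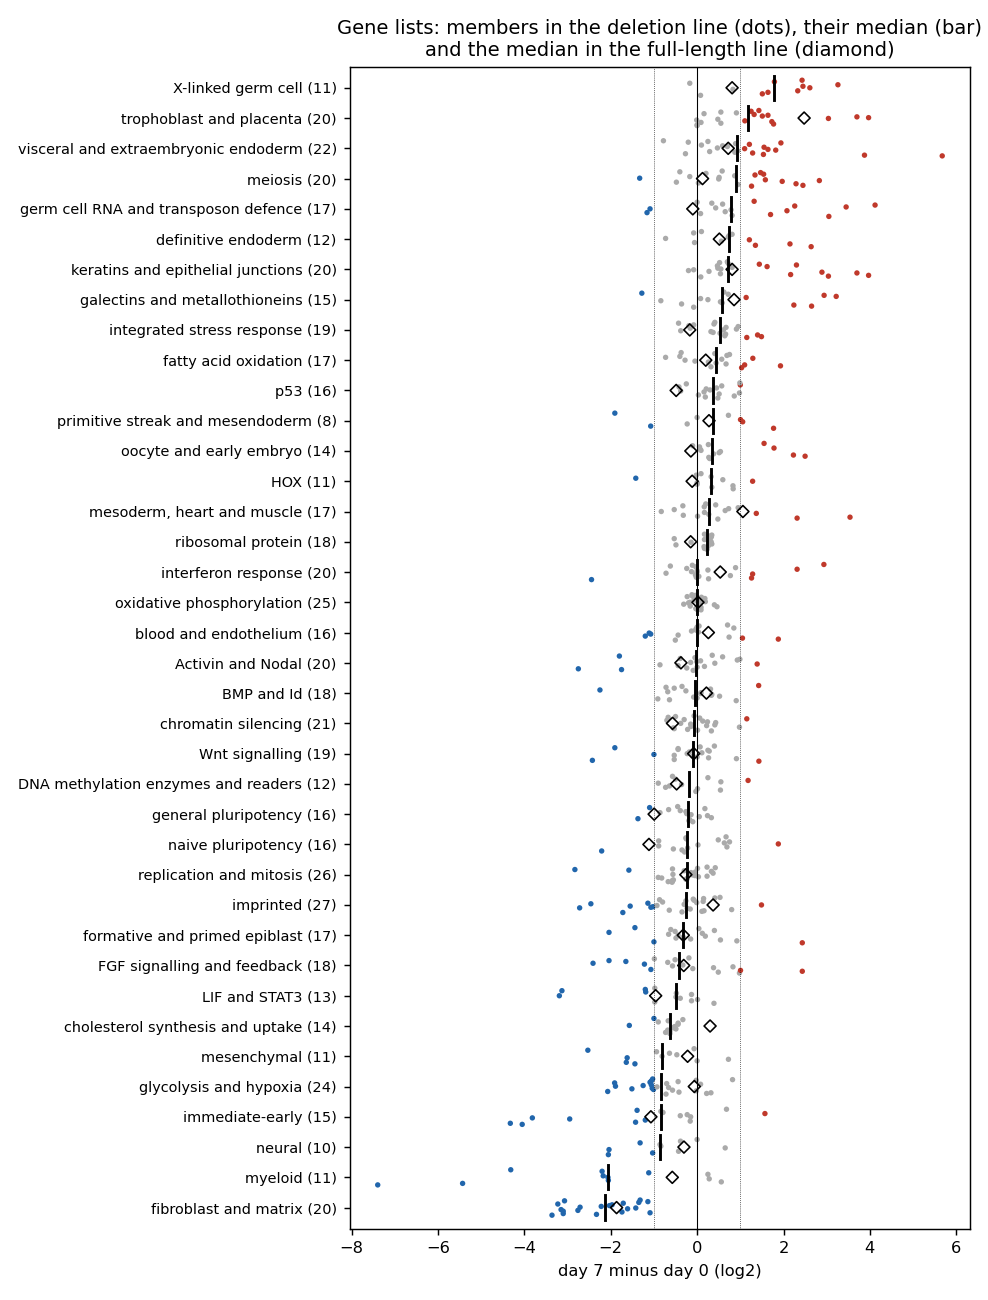
Each row is 1 of 38 gene lists with its number of measured genes; dots are members at their day 7 minus day 0 difference in log2 units in the deletion line (red higher, blue lower, grey neither), black bars are medians, and open diamonds are the same medians in the full-length line. The rows are ordered by the deletion line median, from 1.79 for the X-linked germ cell list at the top to -2.12 for the fibroblast and matrix list at the bottom.

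Pluripotency genes were close to their starting levels at day 7. Of 16 measured genes of naive pluripotency, the ground state of stem cells in LIF, 1 was higher and 1 lower, with a median of -0.23. Klf4, a transcription factor induced by LIF, stood at 13.15, 9.40 and 10.94 on days 0, 4 and 7, a difference of -2.21. Dppa3, which protects the early embryo's genome from methylation changes and marks early germ cells, stood at 11.28, 11.56 and 13.16, a difference of 1.88. It was well above the floor throughout, and at least 2-fold above day 0 on the day 7 array only. Nr0b1, with 12.16 and 11.27, and Tcl1, with 11.73 and 10.84, each had a difference of -0.89, inside 2-fold. Among 16 general pluripotency genes none was higher and 2 were lower, with a median of -0.21. The 2 were Lin28a, an RNA-binding protein that blocks let-7 maturation, at 12.12, 12.36 and 10.75, and Mycn, a MYC family factor, at 13.21, 13.01 and 12.11. Mycn's difference of -1.10 was -0.48 when its probe sets were averaged, and Lin28a's of -1.37 was -0.98. Tdgf1, a Nodal coreceptor, and Zscan10 had differences of -0.86 and -0.66.

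The core regulators lay within 2-fold of their day 0 levels. Pou5f1 stood at 13.66, 13.53 and 13.56 on days 0, 4 and 7 and Sox2 at 13.71, 13.49 and 13.52. Nanog stood at 13.31, 12.77 and 13.94, a difference of 0.63, so its highest array was day 7. The summed level of the 7 pluripotency markers was 16.12, 15.86 and 16.10 on the 3 arrays, and the label of day 7 describes differentiated cells. In the full-length line the same sum was 16.30, 15.67 and 15.59.

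Genes of the formative and primed epiblast, the stage after the naive state, were higher in 1 and lower in 3 of 17 measured genes, with a median of -0.32. Fgf5, the ligand that marks this stage, was at the floor at day 0, at 10.26 at day 4 and at 7.80 at day 7, a difference of at least 2.43, so it was highest in the middle. Etv4, a transcription factor downstream of FGF, stood at 9.10, 7.77 and 7.06, and Cdh2, N-cadherin, at 9.41, 8.79 and 7.97, with differences of -2.04 and -1.44. Pou3f1 stood at 9.63, 11.68 and 8.63, a difference just at the threshold, and inside it, at -0.94, with arrays scaled to equal medians.

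Genes of the LIF and STAT3 pathway, its ligand, receptors and targets, were lower in 4 and higher in none of 13 measured genes, with a median of -0.49. Socs3, the feedback inhibitor that STAT3 induces, stood at 12.48, 10.23 and 9.29, a difference of -3.19, and its other 2 probe sets gave -2.17 and -1.96. Gbx2, a STAT3 target that supports self-renewal, stood at 9.47, 8.64 and 6.34, a difference of -3.13. Junb and Bcl3 had differences of -1.20 and -1.19. With chromosome 11 differences taken less their median, the list's median was -0.75.

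FGF signalling and feedback genes were lower in 5 and higher in 2 of 18 measured genes, with a median of -0.42. The lower genes included the feedback inhibitors Spry4, at 10.62, 10.00 and 8.21 on days 0, 4 and 7, and Dusp6, an ERK phosphatase, at 11.43, 12.10 and 9.78, with differences of -2.41 and -1.65. Spry4's other 3 probe sets lay between -2.27 and -1.15. Both inhibitors were lowest on the day 7 array, while the ligand Fgf5 above was higher than at day 0.

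Activin A was in the medium during the last 3 days. Of 20 measured genes of Activin and Nodal signalling 1 was higher and 3 were lower, and the median of -0.03 lay beside that of all genes and became 0.03 with arrays scaled to equal medians. The ligand subunit genes Inhbb, at 9.29, 6.43 and 6.54, and Inhba, at 8.12, 6.25 and 6.37, had differences of -2.75 and -1.75. Fst, the secreted Activin antagonist follistatin, stood at 9.30, 7.28 and 7.50, a difference of -1.80. All 3 were low on both later arrays. Cfc1, a coreceptor of Nodal, stood at 7.24, 8.04 and 8.63, a difference of 1.39. The Nodal targets Lefty1 and Lefty2, named after their values were seen, had differences of 0.93 and 0.99, just inside 2-fold.

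Of 18 BMP and Id genes 1 was higher and 1 lower, with a median of -0.04. Id3, an inhibitor of differentiation that BMP induces, stood at 10.42, 9.59 and 8.17, a difference of -2.25. Msx2, a homeobox gene downstream of BMP, was at the floor at day 0, at 6.19 at day 4 and at 6.79 at day 7, a difference of at least 1.42. Bmp7 and Bmp2, both ligands, had differences of -0.91 and at least 0.90. Of 19 Wnt signalling genes 1 was higher and 3 were lower, with a median of -0.10. The ligand gene Wnt5a, at 7.79 at day 0, and the Wnt target Sp5, at 7.27, were at the floor on both later arrays. Fzd7, a receptor gene, at 11.10 and 10.10 on days 0 and 7, lay at the threshold. The ligand gene Wnt4 had 1.43, but its other probe set gave -0.47 or below, the opposite direction, from a dim 5.84 at day 0 to the floor.

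Of 18 genes of the primitive streak and mesendoderm, 8 were measured. T, a gene of this list, was not among the genes named with 1 symbol, so its level is not known here. Of the 8 measured genes 3 were higher and 2 lower, and their median of 0.36 became -0.23 with the floor at the 50th percentile. Eomes, a T-box factor of the streak and of trophoblast, stood at 6.15, 8.03 and 7.92 on days 0, 4 and 7, a difference of 1.77, and its other probe set gave 1.38. Evx1 was at the floor at days 0 and 4 and at 6.42 at day 7. Mesp1, the factor of early mesoderm, stood at 6.44, 5.86 and at the floor at day 7, a difference of -1.07 or below. Of the streak markers Gsc and Mixl1 the mean lay below the floor, and their highest deletion line levels were 6.22 and 5.92. Streak regulators were thus not all on 1 side.

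Mesoderm, heart and muscle genes were higher in 3 of 17 measured genes and lower in none, with a median of 0.27. Acta1, skeletal alpha-actin, stood at 6.67, 9.54 and 10.21, a difference of 3.54, and Actc1, cardiac alpha-actin, was at the floor at day 0 and at 7.76 and 7.68 later. Myl4, an atrial myosin light chain, had 1.37, and the heart regulator Nkx2-5 had 0.95. Blood and endothelial genes were higher in 2 and lower in 3 of 16, with a median of -0.01. Pecam1, an adhesion molecule of endothelium and of naive stem cells, stood at 8.80, 8.43 and 10.68, a difference of 1.88. The VEGF receptor gene Flt1 and the blood regulators Lmo2 and Tal1 had differences of -1.20, -1.11 and, for Tal1, -1.07 or below. Flt1's other 3 probe sets lay between -0.96 and 0, inside 2-fold.

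Neural genes were lower in 4 and higher in none of 10 measured genes, with a median of -0.85. Sox1, the factor of early neuroectoderm, stood at 7.42, 7.48 and at the floor at day 7, a difference of -2.05 or below. Its other probe set gave -0.08 or below, and its day 0 level of 5.45, near the floor, left little room for a decrease. Neurod1 stood at 9.55, 8.92 and 7.51, a difference of -2.04, and Ncam1 and Pax6 had -1.32 and -1.03. Another probe set of Ncam1 gave at least 0.31, and another of Pax6 at least 0.12. The summed level of the neural markers was 10.48, 9.85 and 10.52 on days 0, 4 and 7. Tubb3, one of them, stood at 9.47, 8.85 and 10.12, and without it the sum was 9.49, 8.86 and 8.46. Mesenchymal genes were lower in 4 and higher in none of 11, with a median of -0.81. Tgfbi, a matrix protein induced by TGF-beta, stood at 8.52, 6.08 and 5.99, Vim, vimentin, at 13.36, 11.39 and 11.72, and Snai2 at 8.30, the floor and 6.68. HOX genes, the regulators of position along the body axis, had 11 of 26 measured, with 1 higher, 1 lower and a median of 0.32. Hoxc8 stood at 7.15 at day 0 and 5.73 at day 7, and Hoxb9 was at the floor at days 0 and 4 and at 6.65 at day 7. Hoxa3 and Hoxa9 each had a difference of 0.83, in Hoxa3 from the floor.

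All 20 measured genes of fibroblasts and extracellular matrix were at least 2-fold lower at day 7, beside 4.72% of all measured genes, with a median difference of -2.12 and a range from -3.36 to -1.09. Col1a1, the main chain of type I collagen, stood at 9.06, 5.71 and 5.70 on days 0, 4 and 7, a difference of -3.36. Mgp, matrix Gla protein, stood at 8.59 at day 0 and at the floor later. Bgn, biglycan, stood at 11.98, 8.27 and 8.83, a difference of -3.15, and Col3a1, type III collagen, at 11.06, the floor and 7.96. The day 0 array was the high one for each of these genes, and Col3a1 was higher at day 7 than at day 4. The summed level of the 9 fibroblast markers was 13.67 at day 0, 9.93 at day 4 and 11.01 at day 7. In the full-length line the sum was 12.43, 10.13 and 10.83.

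Myeloid genes, those of macrophages and their relatives, were lower in 8 and higher in none of 11 measured genes, with a median of -2.06. Lyz1, a lysozyme gene, had the lowest difference of the named genes: 12.76 at day 0 and the floor at days 4 and 7, a difference of -7.39 or below, at least 168-fold. Its other probe set gave -7.24 or below. Lyz2, the lysozyme of macrophages, stood at 11.60, the floor and 6.17, a difference of -5.43, and Ctss, the protease cathepsin S, at 9.68 and the floor on both later arrays. Lyz1 and Lyz2 are close paralogs whose probes may share transcripts. Laptm5, a lysosomal membrane protein of blood cells, stood at 9.77, 8.16 and 7.57. The defining myeloid markers did not go 1 way. Tyrobp and Fcer1g, adaptors of myeloid receptors, stood at 7.54 and 7.43 at day 0 and at the floor on both later arrays. Csf1r, Cd68 and Spi1 had differences of 0.28, 0.56 and 0.25. Itgam was at the floor on all 6 arrays, and Ptprc had 5.88 at day 0 and the floor later. The summed level of the 8 myeloid markers was 12.09, 9.64 and 10.36 on the 3 arrays of the deletion line and 10.70, 9.44 and 10.69 in the full-length line. Lyz2 alone made up 71.2% of the day 0 sum of the deletion line. Without it, an alternative added after seeing the data, the other 7 markers summed to 10.29, 9.57 and 10.28, so that days 0 and 7 hardly differed.

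Immediate-early genes, which respond to growth factors within minutes, were lower in 7 and higher in 1 of 15 measured genes, with a median of -0.84. Fos stood at 13.57, 8.85 and 9.52 on days 0, 4 and 7, a difference of -4.05 or 16.6-fold, and Egr1 at 13.00, 9.58 and 10.05, a difference of -2.95. Fosb was at 9.69 and Egr2 at 9.18 at day 0, and both were at the floor later. The 4 genes were highest on the day 0 array, and Fos and Egr1 stayed well above the floor later. Atf3, which was higher with 1.57, was named after its value was seen. The fibroblast marker sum given above was highest on the same array, and its part in these lower levels was not tested.

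Glycolysis and hypoxia response genes were lower in 11 and higher in none of 24 measured genes, with a median of -0.82. The lower genes were 45.8% of this list, beside 4.72% of all measured genes. Ldha, lactate dehydrogenase A, stood at 14.17, 14.40 and 12.28 on days 0, 4 and 7, a difference of -1.89 or 3.71-fold. Pfkl, a phosphofructokinase, stood at 11.80, 12.21 and 9.73, a difference of -2.07, and its other 2 probe sets gave -1.86 and -0.81. Egln3, a hypoxia-induced prolyl hydroxylase, stood at 10.07, 10.54 and 8.16, and Tpi1, triosephosphate isomerase, at 13.40, 13.92 and 11.89. For these 4 genes day 4 was slightly above day 0 and day 7 was the low array, unlike the matrix and immediate-early genes, which were low from day 4. Of 25 subunits of oxidative phosphorylation none was higher or lower, the median was 0.00 and the range ran from -0.31 for Sdha to 0.46 for Ndufb9. Ndufv1 and Cox7a2 had 0.40 and -0.23.

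Fatty acid oxidation genes were higher in 4 and lower in none of 17 measured genes, with a median of 0.44. Slc25a20, the mitochondrial carnitine carrier, stood at 11.02, 11.18 and 12.95, a difference of 1.93, with 2.27 in its other probe set. Acaa2, a thiolase, had 1.29, Acadvl, a long-chain dehydrogenase on chromosome 11, had 1.10, which was 0.74 with chromosome 11 differences less their median, and Cpt1a, the enzyme of fatty acid entry, had 1.03. Cholesterol synthesis and uptake genes lay below 0 in all 14 measured genes, between -1.57 and -0.33, and 2 of them passed 2-fold. Lss, lanosterol synthase, stood at 10.46, 8.95 and 8.89, and Stard4, a sterol carrier, at 10.27, 9.41 and 9.27, the latter just at the threshold. Their other probe sets lay inside 2-fold, at -0.95 and -0.34 for Lss and -0.53 and -0.24 for Stard4. Dhcr7 and Mvk, both enzymes of the pathway, had -0.90 and -0.73, and the median was -0.63.

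Integrated stress response genes were higher in 3 and lower in none of 19, with a median of 0.53. Ddit3, the factor CHOP, stood at 8.08, 8.36 and 9.57, Chac1, a glutathione-degrading enzyme, at 8.95, 9.49 and 10.35, and Atf4, the central factor of the response, at 11.64, 12.27 and 12.79. The amino acid transporter gene Slc7a11 had 0.95. Of 16 p53 target genes 1 was higher and none lower, with a median of 0.38. Rrm2b had 1.00, Tnfrsf10b 0.99, Trp53inp1 0.98 and Ccng1, on chromosome 11, 0.86. These lie close to the threshold, and the other probe sets of the 4 genes passed it. They gave 1.83 for Rrm2b, 1.59 for Tnfrsf10b, 1.13 for Trp53inp1 and 1.09 and 1.10 for Ccng1. Interferon response genes were higher in 4 and lower in 1 of 20, with a median of 0.00. Psmb8, an immunoproteasome subunit, was at the floor at day 0 and at 8.44 and 8.30 later, Cxcl10 was at the floor at day 0 and at 7.68 at day 7, and Ifit2 went from 7.81 to the floor. Oasl2 had at least 1.28.

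Of 26 replication and mitosis genes none was higher and 2 were lower, with a median of -0.24. The 2 were D-type cyclin genes, which link growth signals to the cell cycle. Ccnd2 stood at 11.36, 8.14 and 8.53, with its other 6 probe sets between -3.39 and -2.17, and Ccnd1 at 11.79, 10.43 and 10.21. The E-type cyclin genes Ccne2 and Ccne1 had -0.90 and -0.82. Of 18 ribosomal protein genes none was higher or lower, and the median was 0.23, with Rps6 at -0.53, Rpl14 at -0.49 and Rpl19 and Rps19 at 0.34. Genes of galectins, metallothioneins and zinc transporters were higher in 5 and lower in 1 of 15, with a median of 0.58, or 0.25 with probe sets averaged. Mt4, a metallothionein of stratified epithelia, stood at 5.72, 5.80 and 8.94, and Lgals3, galectin-3, at 10.80, 10.61 and 13.04. Both were at least 2-fold above day 0 on the day 7 array only, and Lgals3 was well above the floor throughout. Slc39a8, a zinc importer, stood at 5.43, 9.86 and 8.37, and Lgals2 at 5.48, 9.03 and 8.13.

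Imprinted genes, whose parental copies are marked by DNA methylation, were lower in 7 and higher in 1 of 27 measured genes, with a median of -0.26. Dlk1, a paternally expressed membrane protein, stood at 8.91, 7.40 and 6.19 on days 0, 4 and 7, a difference of -2.72. Phlda2, a growth-restraining gene of the placenta, stood at 11.37, 10.54 and 8.91, a difference of -2.46, and Igf2, the growth factor, at 9.45, 7.67 and 7.73, a difference of -1.72. Mirg, a noncoding RNA of the Dlk1 region, had -1.55. Dlk1 and Phlda2 were lower at each later array. The gene that was higher was Cdkn1c, with 1.49, named after its value was seen.

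The enzymes and readers of DNA methylation were higher in 1 and lower in none of 12 measured genes, with a median of -0.20. Mbd2, a methyl-CpG-binding protein, stood at 7.92, 8.61 and 9.10, a difference of 1.18, but its other probe set gave 0.27. Tet2, which oxidises methylcytosine, had -0.90, Uhrf1, which brings DNMT1 to hemimethylated sites, had -0.73, and Uhrf2 had -0.64. Of 21 chromatin silencing genes 1 was higher and none lower, with a median of -0.07. Suz12, a subunit of Polycomb repressive complex 2, stood at 12.06, 12.24 and 13.21, a difference of 1.15, and 0.79 with chromosome 11 differences less their median. Atf7ip, a partner of SETDB1, had 0.98, Ezh2, the enzyme of the Polycomb complex, had -0.70, and Cbx3 had -0.67.

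Among the 15 genes with the highest differences, several stood in none of the groups above. Pramel6, of the PRAME family, was at the floor at days 0 and 4 and at 10.44 at day 7, a difference of at least 5.07 or at least 33.7-fold, with at least 2.71 in its other probe set. Aspa, the enzyme aspartoacylase on chromosome 11, stood at 5.60, 6.27 and 9.75, a difference of 4.15. Gkn2, a gastrokine, was at the floor at day 0, at 6.01 at day 4 and at 9.31 at day 7. These 3 genes were high on the day 7 array alone. Cyp26a1, which degrades retinoic acid, was at the floor at day 0 and at 8.30 and 9.22 later, Gpat3, an enzyme of triglyceride synthesis, at the floor, 7.03 and 9.20, and Clic6, of the chloride intracellular channel family, at the floor, 9.27 and 9.18. AF067061 stood at 6.21, 8.40 and 9.79. BC080696, left out by the rule on unnamed gene models and named after its values were seen, stood at 5.46 at day 0 and 9.97 at day 7, a difference of 4.51, and its full-length line levels were 7.92 and 6.75. Gsn, gelsolin, an actin-severing protein, stood at 7.14, 9.52 and 11.03, a difference of 3.89, but its other 4 probe sets lay between 0.13 and 1.24 and the probe set brightest on the 2 arrays alone gave 0.73. Kdm5d, a histone demethylase gene on the Y chromosome, stood at 5.61, 6.74 and 9.36, a difference of 3.75.

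Among the 15 genes with the lowest differences, Ptn stood apart from the matrix, myeloid and immediate-early genes. It encodes the growth factor pleiotrophin and stood at 10.60, 7.57 and the floor on days 0, 4 and 7, a difference of -5.23 or below, at least 37.7-fold, with its other 2 probe sets at -0.84 and at -3.09 or below. Trh, the gene of thyrotropin-releasing hormone, stood at 12.59, 12.30 and 9.01, a difference of -3.58, and was low on the day 7 array only. Cdh11, a cadherin of mesenchyme, stood at 10.51, 5.79 and 7.04, and Mmp3, a matrix protease, at 9.53, the floor and 6.23. Ms4a7, a membrane protein of macrophages, stood at 8.75 and at the floor on both later arrays, and Accsl at 9.03, 6.58 and 5.78. For Cdh11, Mmp3 and Ms4a7 the day 0 array was the high one, as for the fibroblast marker sum, whose part was not tested.

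**Figure D3:**
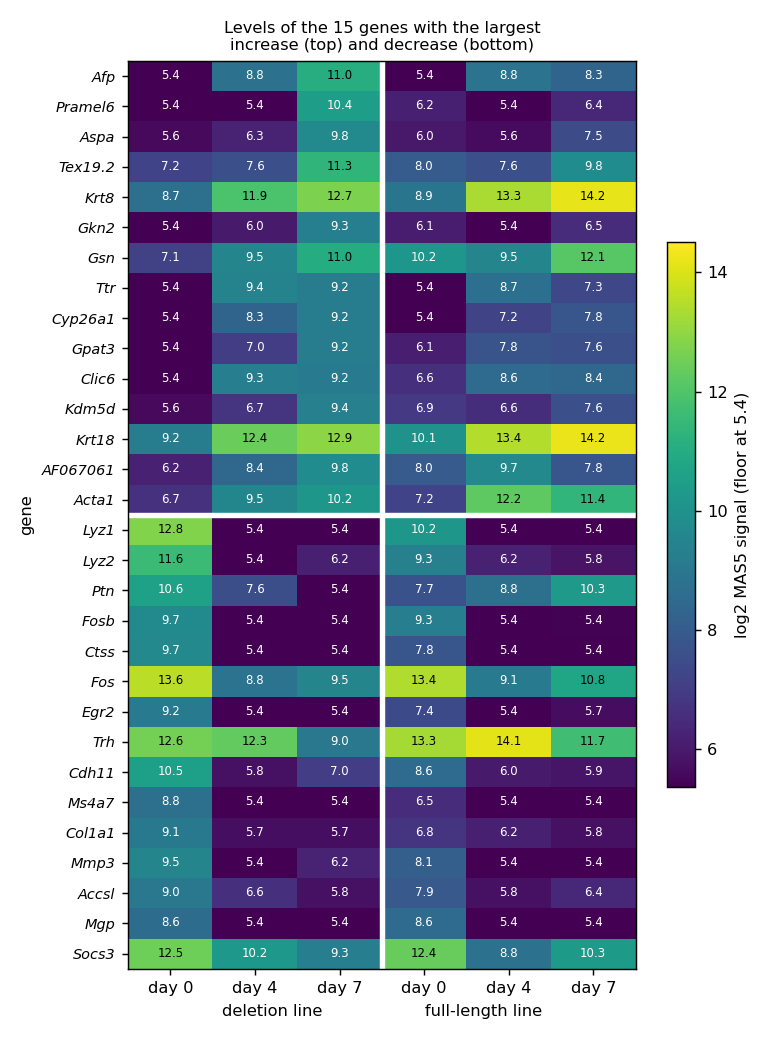
Colours and numbers give the log2 MAS5 signal of the 15 genes with the highest (upper block) and the 15 with the lowest (lower block) day 7 minus day 0 difference in the deletion line, on the 3 arrays of that line and, to the right, of the full-length line. Values of 5.4 are the floor; most lower genes are at or near it by day 4 in both lines, whereas Ptn ends at the floor in the deletion line and at 10.30 in the full-length line.

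A net difference near 0 can hide a difference at day 4. Among genes whose days 0 and 7 lay within 2-fold in the deletion line, Fndc3c1, a fibronectin type III domain protein on the X chromosome, stood at 7.09, 10.58 and 6.65 on days 0, 4 and 7. Cnn1, the smooth muscle protein calponin 1, stood at 5.74, 9.12 and 5.42, and Spon1, a secreted adhesion protein, at the floor, 9.09 and the floor. Lrrn1 and Slc35d3 had day 4 levels of 8.22 and 8.54 and day 0 levels at the floor. These 5 were chosen for being highest at day 4. In the other direction Pla2g7, a lipoprotein-associated phospholipase, stood at 9.83, 6.79 and 9.72. The chemokine genes Ccl2 and Ccl7 stood at 9.20, 5.75 and 8.44 and at 8.01, the floor and 7.70. Ccn4, a matricellular protein, stood at 8.27, the floor and 7.81, and Siglecf, a sialic acid-binding lectin of white blood cells, at 7.63, the floor and 7.66. These 5 were chosen for being lowest at day 4, and another probe set of Ccn4 stood at 8.61 at day 0 and 7.25 at day 7, a difference of -1.36.

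The same contrast in the full-length line uses 2 other arrays and shares none with the deletion line. There 1323 genes were at least 2-fold higher at day 7, which is 9.96% of the measured genes, and 567 were lower, which is 4.27%. The 2 lines had 314 higher genes in common, 37.8% of those of the deletion line and 23.7% of those of the full-length line. They had 176 lower genes in common, 28.1% of the deletion line's and 31.0% of the full-length line's. The 830 genes higher in the deletion line had a median difference of 0.69 in the full-length line, where 663 of them lay above 0. The 627 lower genes had a median of -0.40 there, and 416 lay below 0. Across genes, which are not independent replicates, Pearson's r between the lines' net differences was 0.36. The difference between the lines was not tested, since each side has 1 array.

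**Figure D4:**
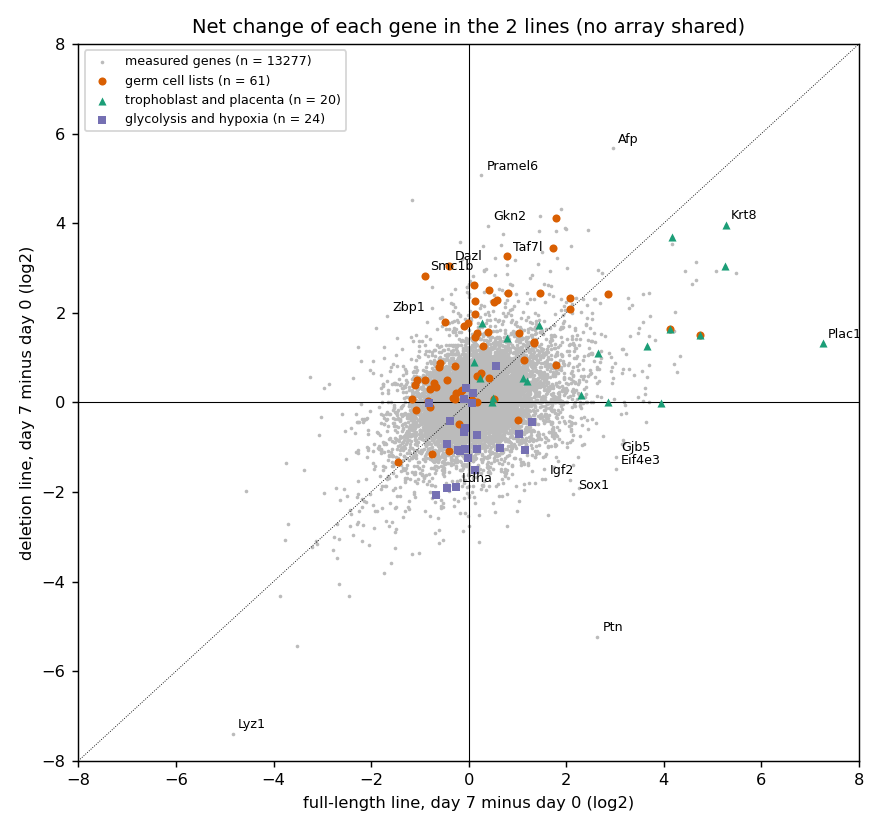
Each point is 1 measured gene, with its day 7 minus day 0 difference in log2 units in the full-length line on the x axis and in the deletion line on the y axis; the dotted line marks equal differences. Germ cell genes (orange) lie mostly above that line with 46 of 61 larger in the deletion line, trophoblast genes (green) mostly below it with 5 of 20 larger, and glycolysis and hypoxia genes (violet) mostly below it with 5 of 24 larger.

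Set side by side, the 61 measured germ cell genes had a median difference of 0.83 in the deletion line and 0.12 in the full-length line, with 28 and 14 genes higher. By list, the full-length medians were 0.125 for meiosis, -0.10 for RNA and transposon defence, 0.81 for X-linked and -0.145 for oocyte and early embryo genes. The X-linked genes were thus higher in both lines. In the full-length line 5 of those 11 were at least 2-fold higher, and 6 of 11 had the larger value in the deletion line. Dazl had -0.40 in the full-length line, from 11.40 at day 0, Smc1b had -0.90, from 9.50 to 8.60, and Magea5 had 0.10, from 8.75 to 8.85. At day 0 all 3 were lower in the deletion line than in the full-length line, an order that a choice by net difference favours. Other germ cell genes were at least 2-fold higher in the full-length line too: Tex19.2 had 1.78 there, Asz1 1.72, Sycp1 1.47 and Sohlh2 1.04. Tktl1 had at least 2.85, more than in the deletion line. Pramel6 stood at 6.16 and 6.41 at days 0 and 7 of the full-length line, and Gkn2 at 6.11 and 6.51. Naive pluripotency genes had a median of -1.11 in the full-length line with 10 of 16 lower, beside -0.23 with 1 of 16, and 15 of the 16 had the larger value in the deletion line. Cholesterol genes had a median of 0.30 in the full-length line, and none of the 14 had the larger value in the deletion line. Glycolysis and hypoxia genes had a median of -0.06 there with none lower, and Ldha stood at 14.60 and 14.34.

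Trophoblast genes had a median of 2.48 in the full-length line with 14 of 20 higher, beside 1.18 with 11 of 20 in the deletion line. Plac1, a placenta-enriched gene on the X chromosome, was at the floor at day 0 and at 12.62 at day 7 of the full-length line. Its levels on those days in the deletion line were 6.09 and 7.41. Elf5, at the floor throughout in the deletion line, reached 8.22 at day 7 of the full-length line. Msc, the factor musculin, stood at 7.50 at day 0 and 8.07 at day 7 of the deletion line, whereas it went from 8.70 to 5.45 in the other. Fibroblast and matrix genes had medians of -1.86 and -2.12, so that both lines had low values. The myeloid median was -0.57 in the full-length line with 5 of 11 lower and 1 higher. Lyz1 had -4.83 or below there, Lyz2 -3.51, Ctss -2.45 or below and Laptm5 -1.22, and the gene that was higher was Csf1r, from 6.86 to 8.88. Imprinted genes had a median of 0.37 in the full-length line with 10 of 27 higher and 4 lower.

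Of the remaining lists, the full-length medians were -0.99 for general pluripotency, -0.32 for formative epiblast, -0.96 for LIF and STAT3, -0.38 for Activin and Nodal, 0.21 for BMP, -0.31 for FGF and -0.08 for Wnt genes. They were 0.28 for the streak, 0.52 for definitive endoderm, 0.72 for extraembryonic endoderm, 0.81 for epithelial, 1.06 for mesoderm, 0.26 for blood, -0.30 for neural and -0.22 for mesenchymal genes. Immediate-early genes had -1.07, methylation genes -0.47, chromatin silencing genes -0.57, oxidative phosphorylation genes 0.02 and fatty acid oxidation genes 0.20. Stress response genes had -0.17, p53 targets -0.48, interferon genes 0.54, replication genes -0.26, ribosomal protein genes -0.15, HOX genes -0.11 and galectins and metallothioneins 0.85. Afp stood at 8.32 at day 7 of the full-length line, from the floor at day 0, and Ttr at 7.35, below their day 7 levels in the deletion line. The summed extraembryonic endoderm markers were at 10.60 at day 7 of the full-length line, beside 12.22.

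Genes of chromosome 11 were higher at day 7 of the deletion line as a body. Their median difference was 0.36 over 1093 measured genes, and 74.0% of them lay above 0. Over the other 19 chromosomes, leaving out the Y, medians ran from -0.02 to 0.06 and the share above 0 from 46.1% to 54.3%. On chromosome 11, 116 genes were at least 2-fold higher, 10.6% of its genes beside 6.25% of all, and 38 were lower. When its genes were cut into 8 consecutive runs of 136 or 137 genes by their order along the chromosome, each run had a median between 0.31 and 0.41, so no run lay near the value of the other chromosomes. The 691 genes of chromosome 11 that were at least 4 times the floor on all arrays had a median of 0.38.

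By day, the median of chromosome 11 was 0.05 for day 4 against day 0 and 0.32 for day 7 against day 4 in the deletion line, 2 differences that share the day 4 array, and 0.02 for day 7 against day 0 in the full-length line. Set against the full-length line on the same day, chromosome 11 genes of the deletion line had a median of -0.18 at day 0, -0.07 at day 4 and 0.15 at day 7, while the other chromosomes lay between -0.08 and 0.01 at day 0 and between -0.13 and -0.01 at day 7. Without the genes of chromosome 11, which was done after seeing the data, 714 genes were higher, 5.86% of 12184, and 589 were lower. Germ cell genes named above lie on other chromosomes too, Asz1 on 6, Dazl on 17, Smc1b on 15 and Taf7l on X.

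The 7 measured genes of the Y chromosome had a median difference of 1.17 in the deletion line, and 4 of them were at least 2-fold higher. Besides Kdm5d these were Usp9y, with 6.51 at day 0 and 8.35 at day 7, Uba1y, with 8.31 and 9.97, and Eif2s3y, with 10.54 and 11.71. Uty stood at 8.67 and 9.37, inside 2-fold. Orly and Sry lay below 0, with differences of -0.31 and -0.56. In the full-length line the median of the 7 genes was -0.06. On the X chromosome 56 of 457 measured genes were higher, 12.3%, with a median of 0.05, and 17.9% were higher in the full-length line.

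**Figure D5:**
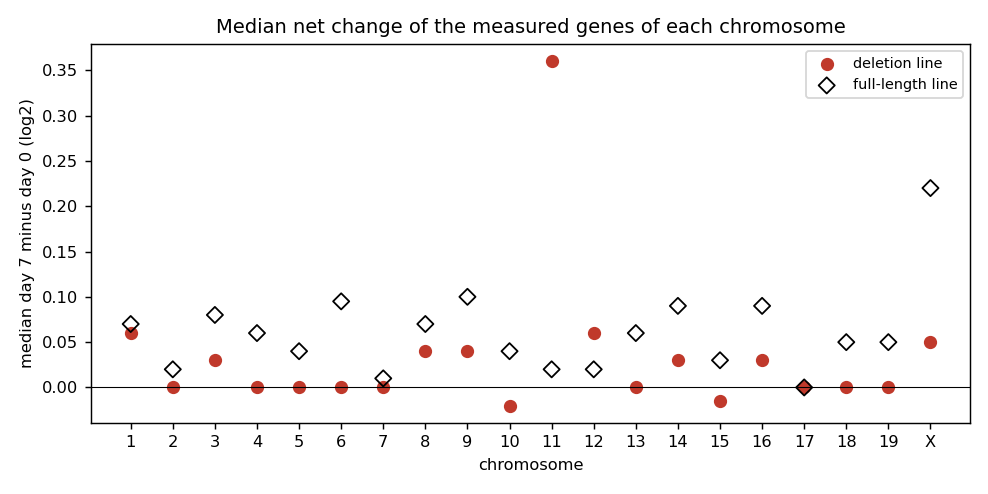
Points give the median day 7 minus day 0 difference in log2 units of the measured genes of each chromosome (x axis), filled for the deletion line and open diamonds for the full-length line; the Y chromosome with 7 genes is left out. Chromosome 11 lies at 0.36 in the deletion line, where the other chromosomes lie between -0.02 and 0.06.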

How the data were processed

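Biotin-labelled RNA of 6 samples was hybridised to Affymetrix arrays, per the labels' protocols. The authors deposited log2 signals computed by MAS5, as the submitters' processing notes name it. The log base was inferred from the numbers, and neither the version of MAS5 nor its scaling target nor its treatment of low signals is given in the sources used here. Values ran from 0 to 15.68 over 45037 probe sets, array medians from 6.02 to 6.19, and the number of probe sets listed at 0 from 350 to 514. The trimmed mean of the linear signals lay between 496.7 and 496.9 on every array, and this scaling hides any shift shared by most genes. The number of arrays limits the precision, and no detection calls were used.

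Groups were taken from the sample titles. Values were floored at the median over arrays of the 40th percentile, a percentile and not a measured background, and log2 was taken again. The platform annotation, dated 2016, named 34945 probe sets with 1 symbol, 932 with several and 9160 with none; 34741 of the first were found in a RefSeq table and 0 symbols changed. Genes took the probe set with the highest mean signal over the 6 arrays, and were measured where that mean reached the floor. Chromosomes and promoters came from RefSeq tables of GRCm38.p6. Counting was tested on simulated data. Python 3.11.15, numpy 2.4.6 and pandas 2.3.3 were used. No test was run, since each side has 1 array.

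The lists, the rule and the comparison were chosen with earlier results of these data known. The rule names Dnmt1, Dnmt3a and Dnmt3b. From genes whose brighter array reached 4 times the floor and whose other probe sets did not go the other way, it takes the 15 with the highest and the 15 with the lowest difference, without symbols that begin with Gm and digits, LOC, BC, AI, AU, AW, or C or D and digits, or that hold Rik. AF067061, which begins otherwise, was kept by that wording, and BC080696 was not. It takes up to 4 genes per list with the largest difference, counted genes first. It takes the 6 highest and 6 lowest differences between the lines, and the 5 genes highest and 5 lowest at day 4 with days 0 and 7 within 2-fold. Cell type markers were listed separately. The 38 lists are those in the plot of gene lists. Alternatives concerned the floor, the scaling, the choice of probe set, the filter on dim genes and chromosome 11.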

Additional observations from a re-analysis of the deposited data

Results flagged for a closer look

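Among the genes named by rule, 8 were at least 2-fold higher at day 7 in 1 line and at least 2-fold lower in the other. The values below are the net difference of the deletion line minus that of the full-length line, with 1 array for each line and day, so the difference between the lines was not tested in any of them. Over all measured genes 17 were higher in the deletion line and lower in the full-length line, and 44 the reverse.

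Ptn, pleiotrophin, had -7.875 or below, from a log2 level of 10.60 to the floor in the deletion line and from 7.66 to 10.30 in the full-length line. Of its other probe sets, 1 went from 8.46 to the floor against 5.89 to 8.54. The other was lower at day 7 in both lines, from 7.10 to 6.26 against 6.86 to 6.35. Eif4e3, a cap-binding protein, had -4.51 or below, from 6.86 to the floor against from the floor to 8.38. Its other probe set gave 0 in the deletion line, where it was at the floor on both days. Gjb5, a connexin, had -4.22, from 8.82 to 7.61 against 7.20 to 10.21. Sox1 had -4.185 or below, from 7.42 to the floor against 6.70 to 8.83. Its other probe set, near the floor at day 0, was at -0.08 or below in the deletion line. Ms4a4d, a membrane protein, had -4.165 or below, from 7.27 to the floor against 6.18 to 8.44.

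Igf2 had -3.28, from 9.45 to 7.73 against 8.19 to 9.75. Cdh2 had -3.19, from 9.41 to 7.97 against 8.11 to 9.86. Its other probe set went from 7.40 to 6.72, inside 2-fold, against 6.87 to 8.08. Zbp1, a sensor of Z-form nucleic acids, was the only 1 of the 8 with the higher value in the deletion line, 3.59, from 5.94 to 7.86 against 7.90 to 6.23. Its other probe set stayed inside 2-fold in both lines, from 6.34 to 7.16 against 7.11 to 6.30. For Ptn, Eif4e3, Gjb5, Sox1, Ms4a4d, Igf2 and Cdh2 the day 0 level was higher in the deletion line than in the full-length line, and for Zbp1 it was lower. The day 0 levels enter the differences by which these genes were chosen. The choice alone therefore favours this order, which is not a separate observation. BC080696, which the rule left out and which was named after its values were seen, had 5.68, with 4.51 in the deletion line and -1.17 in the full-length line.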

How the results depend on the processing

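Each count was recomputed under 12 alternatives, 10 chosen at the start and the 2 on chromosome 11 added after seeing the data. With the floor at the 25th percentile, 1269 genes were higher and 1047 lower in the deletion line and 903 lower in the full-length line, more than 1.5 times the counts reported; that floor keeps 15582 genes as measured. In the other alternatives the deletion line had 629 to 930 higher and 425 to 664 lower genes, and the share of higher among all that differed ran from 53.5% to 62.2% beside 57.0%. Of 177 named genes, 133 were counted as higher or lower. None of these 133 changed direction, and 104 of them stayed counted in every alternative run. The direction of named genes within 2-fold was not part of this count. Dnmt1, at -0.03, had other probe sets at 0.68 and at least 1.45. The streak list's median became -0.23 with the floor at the 50th percentile; the cause was not tested. The median of the Activin and Nodal list became 0.03 with equal array medians, and that of the blood list 0.015, there and with quantile normalization. Where only genes with all probe sets in 1 direction were kept, the medians were -0.395 for BMP, -0.68 for FGF and -0.57 for DNA methylation genes; with no filter on dim genes they were -0.38 for neural and 0 for HOX and streak genes; with no floor the myeloid median was -3.97. No paired analysis was possible because each group has 1 array and the labels give no replicate numbers, and no array could be left out. Differences of genes near the floor are limited by signal over background, which was not measured.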
